A study of Bos taurus with 6 samples.

Results

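Central carbon metabolism is the set of reactions that carry glucose to pyruvate and lactate, branch from glucose 6-phosphate into the pentose phosphate pathway, and burn pyruvate in the mitochondrial tricarboxylic acid (TCA) cycle. Transcripts of its enzymes and sugar transporters were read in bovine blastocysts, the embryo stage at which a fluid-filled cavity, an outer trophectoderm and an inner cell mass have formed. The gene set named 47 genes: 5 membrane transporters, 17 genes of glycolysis and lactate formation, 5 of the pentose phosphate pathway, 5 of pyruvate entry into the mitochondrion's cycle and 15 of the TCA cycle with its cytosolic counterparts. Genes were taken by symbol, and where a gene had several probe sets the one of highest mean stood for it. A symbol was found for 43 of the 47, among 9155 genes with a symbol, and 66 probe sets carried these 43 symbols. HK2, DLST, IDH3B and MDH1 had no probe set under their symbols and were not analysed here.

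In both groups the embryos came from superovulated and artificially inseminated Simmental heifers and were collected on day 7. The superovulated group (3 arrays) grew to day 7 in the tract of the stimulated donor. The synchronized group (3 arrays) was flushed on day 2 at the 2-cell stage and moved by endoscope into recipients that had been synchronized but not stimulated, so these embryos alone were also flushed and transferred. Each array is an Affymetrix Bovine Genome Array hybridized with amplified, biotin-labelled RNA, and its values are log2 signals deposited by the authors. Nothing in the labels ties an array to its own animals or says how many embryos it holds, so a p-value here reflects only array-to-array spread, part of which may be technical.

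As background, hexokinase, phosphofructokinase and pyruvate kinase control the flow through glycolysis, and lactate dehydrogenase converts pyruvate to lactate and back. Transketolase and transaldolase return pentose phosphates to glycolysis, and the pathway supplies ribose for nucleotides and NADPH for synthesis and redox defence. Early cleavage embryos draw mainly on pyruvate and lactate, and glucose uptake increases as the blastocyst forms and trophectoderm begins to pump fluid.

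Most signals lay near background, with array medians of 2.75 to 2.77 in the superovulated group and 2.76 to 2.8 in the synchronized group. The number of probe sets above log2 4 ran from 1457 to 1894 on the superovulated arrays and from 973 to 1850 on the synchronized arrays, with the fewest on synchronized array 1. A gene or probe set is called bright here when its mean over the 6 arrays is above log2 4. The 925 bright genes differed between the groups by a median of 0.65 log2 units, higher in the superovulated group, while the median over all 9155 genes was -0.02. Bacterial hybridization controls averaged 12.3 to 12.35 on the superovulated arrays, with 12.56 to 13.29 on the synchronized arrays. The part of these array-wide gaps in the results below was not tested. Of the markers that define the embryo, the trophectoderm keratin gene KRT18 read 7.74 to 8.11 on the superovulated arrays, against 3.55 to 4.90 on the synchronized arrays, whereas KRT8 and SOX2 stayed between 2.27 and 2.44 on all 6 arrays.

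The superovulated group had higher signals for 2 of the 43 genes at an adjusted p below 0.05 (limma with Benjamini-Hochberg adjustment over all 24016 probe sets). These were MDH2 of the TCA cycle and the fructose transporter gene SLC2A5, and 0 of the 43 had lower signals at that threshold. Higher calls made up 1.3% of all genes read the same way and 0.695% of all probe sets tested. At an unadjusted p below 0.05, 11 of the 43 genes passed, against 10% of all genes. A looser rule, adjusted p below 0.3 with at least a 2-fold difference, added TKT and IDH2 and so held 4 of the 43, all higher, against 3.15% of all genes. The 3 superovulated arrays all lay above the 3 synchronized arrays in 12 of the 43 genes (27.9%), against 9.06% of all genes. All 3 lay below in 3 genes, TPI1, PGAM1 and RPIA, against 7.86% of all genes. The 2 sets are unlike in signal, since 23.3% of the 43 genes were bright, against 10.1% of all genes. The part of this in the counts was not tested. In whole blastocysts, fewer cells of a type and less RNA per cell cannot be told apart. The 2 calls did not hold together in any fit on 5 arrays. Leaving out superovulated array 1 gave ALDOA and IDH2 in their place, leaving out synchronized array 3 left MDH2, and leaving out any other single array left 0 genes.

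**Figure D1:**
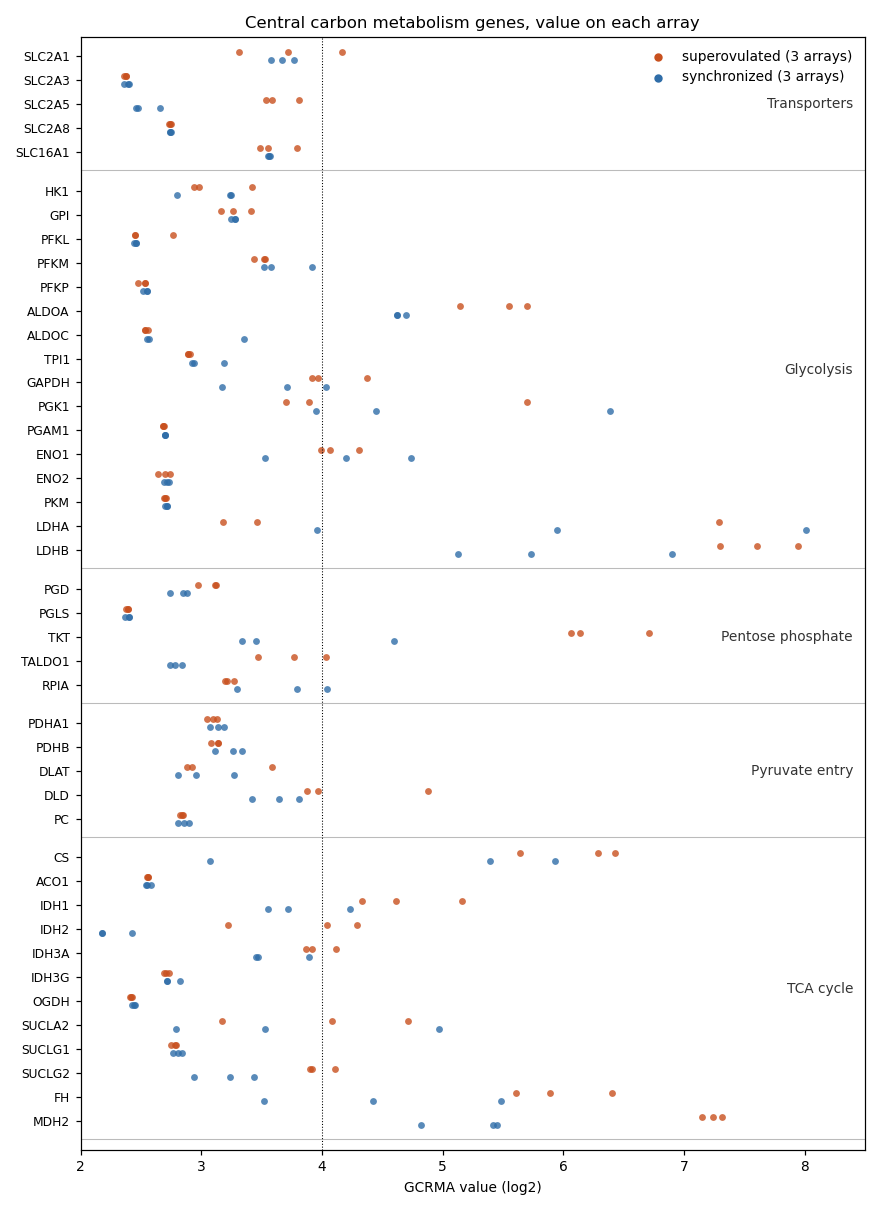
Signal (log2) of the 43 central carbon metabolism genes on each array, grouped by pathway, with superovulated arrays (orange) above synchronized arrays (blue) in each row. The dotted line marks log2 4, which 24 of the genes exceeded on no array.

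The genes differed among themselves mainly in whether they gave a signal at all. On no array did 24 of the 43 exceed log2 4, and on all 6 arrays only ALDOA, LDHB and MDH2 did. The 10 bright genes were ALDOA, PGK1, ENO1, LDHA and LDHB of glycolysis, TKT of the pentose phosphate pathway, and CS, IDH1, FH and MDH2 of the TCA cycle. TKT and IDH1 passed that line only through the superovulated arrays, so the brightness rule favoured a positive difference in both. Of the 10, 7 had a positive difference (70%), against 74.1% of all bright genes. Over every measured gene the medians were 0.57 for the 12 TCA cycle genes, 0.24 for the 5 pentose phosphate genes, -0.02 for the 5 genes of pyruvate entry, -0.02 for the 16 glycolysis genes and 0.05 for the 5 transporters, and 0.01 for all 43. When every array was centred on its bright probe sets, the median over all probe sets moved by -0.62 and these list medians turned or stayed negative: -0.40 for pyruvate entry and TCA cycle together, -0.38 for pentose phosphate, and -0.63 for glycolysis with transport.

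**Figure D2:**
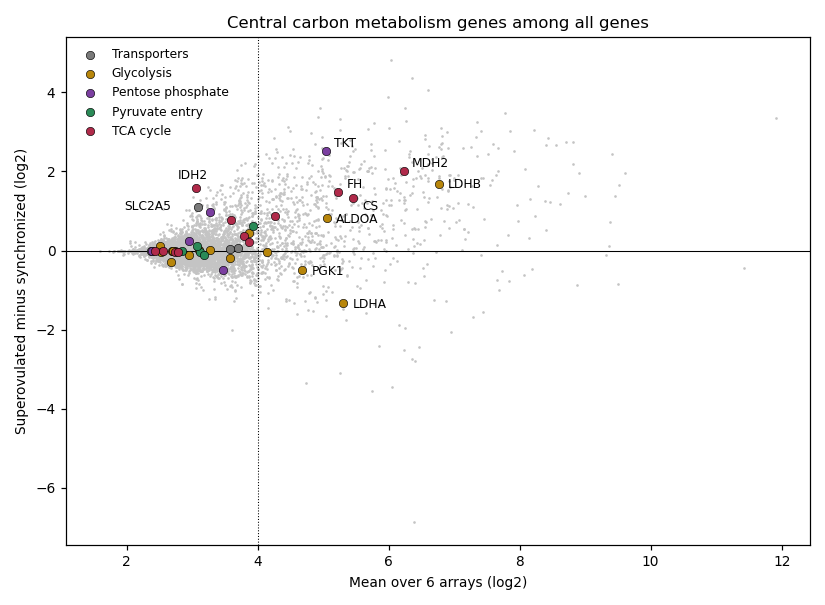
Mean signal over the 6 arrays (log2, x axis) and difference, superovulated minus synchronized (log2, y axis), of the 43 genes (coloured by pathway) and of all 9155 genes (grey points). The genes left of the dotted line at log2 4 lie close to 0 apart from IDH2, SLC2A5 and a few others, and the bright genes spread from -1.33 for LDHA to 2.51 for TKT.

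MDH2 encodes the mitochondrial malate dehydrogenase, which closes the TCA cycle by oxidizing malate to oxaloacetate. It read 7.24, 7.31 and 7.15 on superovulated arrays 1 to 3, against 5.45, 5.42 and 4.82 on synchronized arrays 1 to 3. The groups were clearly apart and the superovulated arrays lay within 0.16 log2 units of each other. MDH2 rose by 2 log2 units (95% interval 1.52 to 2.49), a 4.01-fold difference, with adjusted p = 0.0342 by limma. Its second probe set lay between 2.79 and 2.82 on all 6 arrays and differed by 0.01. The difference stayed between 1.8 and 2.11 when single arrays were left out, but the adjusted p was above 0.05 without superovulated array 1 (0.116), 2 (0.144) or 3 (0.112) and without synchronized array 1 (0.0777) or 2 (0.067), and 0.012 without synchronized array 3. With a second quantile normalization the difference was 1.03 and did not pass (adjusted p = 0.751), and with its 2 probe sets averaged it was 1.01 (adjusted p = 0.0308).

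The cytosolic and mitochondrial NADP-dependent isocitrate dehydrogenases, IDH1 and IDH2, supply NADPH. IDH2 read 3.22, 4.04 and 4.29 on the superovulated arrays, against 2.18, 2.43 and 2.18 on the synchronized arrays. The groups did not overlap, and the synchronized arrays sat at background. Its difference of 1.59 (95% interval 0.81 to 2.36) had adjusted p = 0.167, and 0.0446 without superovulated array 1. IDH1 read 4.33, 4.61 and 5.16 on the superovulated arrays, with 3.55, 4.23 and 3.72 on the synchronized arrays. Its lowest superovulated array was 0.1 above its highest synchronized array, and the difference of 0.87 did not pass (adjusted p = 0.609). A second IDH1 probe set lay apart in the same direction by 0.68 (adjusted p = 0.247), and the third, near background, by 0.03.

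CS, the citrate synthase that admits acetyl groups to the cycle, read 5.64, 6.29 and 6.43 on the superovulated arrays, against 3.07, 5.93 and 5.39 on the synchronized arrays. Only synchronized array 1 was low, and the groups overlapped. The difference of 1.32 did not pass (adjusted p = 0.636) and was 0.46 without synchronized array 1. A second CS probe set, between 2.46 and 2.68 on all arrays, differed by 0.17 without overlap. FH, the fumarase that hydrates fumarate to malate, read 5.61, 5.89 and 6.40 on the superovulated arrays, with 3.52, 5.48 and 4.42 on the synchronized arrays. The highest synchronized array came within 0.13 of the lowest superovulated one, and the difference of 1.49 had adjusted p = 0.636. A second FH probe set, between 2.79 and 2.90 on all arrays, differed by -0.04. With both FH probe sets averaged the difference was 0.73. Synchronized array 1 gave the lowest of the 6 values in 5 of the 10 bright genes (ENO1, LDHB, CS, IDH1 and FH), as it did in 56.1% of all bright genes.

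SUCLG2 and SUCLA2 are the alternative GTP- and ATP-forming subunits of succinyl-CoA synthetase. SUCLG2 read 3.92, 4.11 and 3.90 on the superovulated arrays, against 2.94, 3.44 and 3.24 on the synchronized arrays. The groups did not overlap, and the difference of 0.77 (95% interval 0.40 to 1.14) had adjusted p = 0.163. SUCLA2 read 3.17, 4.08 and 4.71 on the superovulated arrays, against 2.79, 4.97 and 3.53 on the synchronized arrays. Those groups overlapped widely, with a difference of 0.22 (95% interval -1.58 to 2.03, adjusted p = 0.846). Whether the SUCLG2 and SUCLA2 differences themselves differ was not tested. A second SUCLA2 probe set, between 2.95 and 3.36 on all arrays, differed by -0.16. IDH3A, the catalytic subunit of the NAD-dependent isocitrate dehydrogenase, read 4.12, 3.92 and 3.87 on the superovulated arrays, with 3.89, 3.45 and 3.47 on the synchronized arrays (difference 0.37, adjusted p = 0.636). The other 4 genes of the cycle, ACO1, IDH3G, OGDH of the 2-oxoglutarate dehydrogenase complex, and SUCLG1, stayed between 2.41 and 2.84 on every array.

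**Figure D3:**
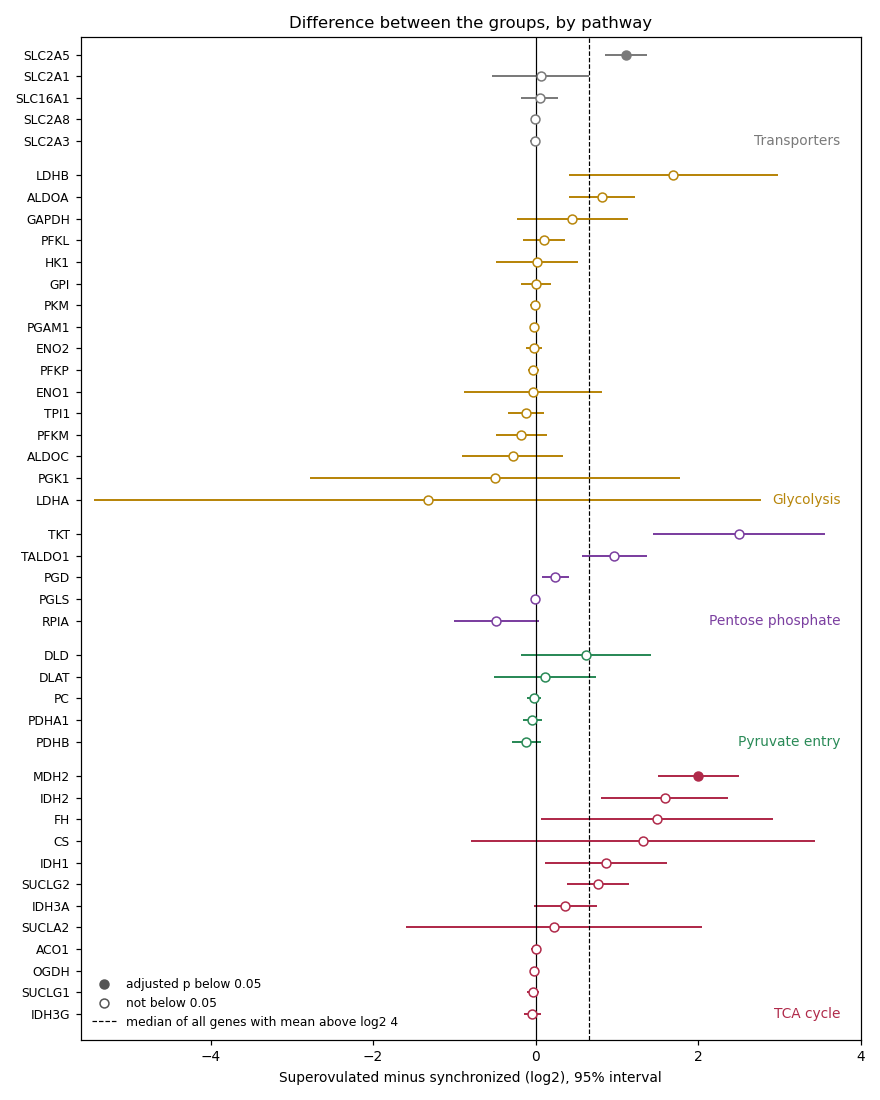
Difference, superovulated minus synchronized (log2), with its 95% interval from the limma fit for each of the 43 genes, ordered within each pathway. Filled marks (SLC2A5 and MDH2) have an adjusted p below 0.05, and the dashed line is the median of all bright genes, 0.65.

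Pyruvate entry was read through subunits of the pyruvate dehydrogenase complex and through pyruvate carboxylase. PDHB, the beta subunit of its first enzyme, gave discordant readings on its 3 probe sets. The probe set with the highest mean read 3.14, 3.14 and 3.08 on the superovulated arrays, against 3.26, 3.11 and 3.34 on the synchronized arrays (difference -0.12, adjusted p = 0.636). Another PDHB probe set read 3.57, 3.74 and 3.66 on the superovulated arrays, against 2.62, 2.53 and 2.68 on the synchronized arrays, so the groups stood well apart near background. That probe set rose by 1.05 (95% interval 0.89 to 1.20, adjusted p = 0.0148 by limma), and the third differed by -0.16. With it, 3 of the 66 probe sets of these genes passed, against 0.716% of all probe sets. PDHA1, the alpha subunit, had 4 probe sets with differences between -0.27 and 0.57, none of which passed.

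DLD, the dihydrolipoamide dehydrogenase shared by the pyruvate and 2-oxoglutarate complexes, read 3.88, 4.88 and 3.97 on the superovulated arrays, with 3.42, 3.64 and 3.81 on the synchronized arrays. The groups did not overlap, by a gap of 0.07, and the difference of 0.62 did not pass (adjusted p = 0.636). DLAT, the acetyltransferase core, and PC, which carboxylates pyruvate to oxaloacetate, stayed below log2 3.6 on every array, with differences of 0.12 and -0.02.

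In the pentose phosphate pathway, the 2 enzymes of its non-oxidative branch that exchange carbon units had the highest differences. TKT, transketolase, read 6.06, 6.71 and 6.14 on the superovulated arrays, against 3.45, 3.34 and 4.60 on the synchronized arrays. All superovulated arrays lay more than 1 log2 unit above the highest synchronized array. The difference of 2.51 (95% interval 1.46 to 3.55) had adjusted p = 0.113, and 2 of the 3 synchronized arrays lay below log2 4. TKT passed with array weights (adjusted p = 0.029), but in none of the fits without a single array, where adjusted p ran from 0.0739 to 0.346. TALDO1, transaldolase, read 3.47, 4.03 and 3.77 on the superovulated arrays, against 2.74, 2.78 and 2.84 on the synchronized arrays. The groups did not overlap, with the synchronized arrays at background, and the difference of 0.97 (95% interval 0.59 to 1.35) had adjusted p = 0.096. PGD, the NADPH-forming phosphogluconate dehydrogenase of the oxidative branch, differed by 0.24 within a range of 2.74 to 3.12 (adjusted p = 0.338), and PGLS, the lactonase before it, stayed between 2.37 and 2.40. RPIA, the isomerase of ribose 5-phosphate, read 3.27, 3.21 and 3.20 on the superovulated arrays, with 3.30, 4.04 and 3.79 on the synchronized arrays, a difference of -0.48 that did not pass (adjusted p = 0.636).

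The lactate dehydrogenase subunits had unlike values across the arrays, and whether their group differences themselves differ was not tested. LDHB, the subunit that predominates in heart, read 7.30, 7.94 and 7.60 on the superovulated arrays, against 5.13, 6.90 and 5.73 on the synchronized arrays. LDHB was well above background everywhere, and its lowest superovulated array exceeded its highest synchronized array by 0.4. Its difference of 1.69 (95% interval 0.42 to 2.97) did not pass (adjusted p = 0.492), except among bright probe sets alone (0.047). LDHA, the subunit that predominates in skeletal muscle, read 3.18, 3.46 and 7.29 on the superovulated arrays, against 3.96, 8.01 and 5.95 on the synchronized arrays. Each group thus held arrays near background and arrays with a strong signal, 4.83 log2 units apart at the extremes. Its difference of -1.33 had a 95% interval of -5.42 to 2.76 (adjusted p = 0.669), and it was -2.65 without superovulated array 3 and -0.31 without synchronized array 2. After centring on bright probe sets the difference was -1.95, with an SD of 1.85 within groups. LDHA passed in that fit (adjusted p = 8.28e-06 by limma), which used 1 SD of 0.438 shared by all probe sets. That p-value thus says little of LDHA itself. The other 2 LDHA probe sets differed by 0.28 and 0.03 near background, with no such spread.

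PGK1, the phosphoglycerate kinase that makes the first ATP of glycolysis, read 3.70, 3.89 and 5.70 on the superovulated arrays, with 3.95, 6.39 and 4.45 on the synchronized arrays. Like LDHA, it was high on superovulated array 3 and highest on synchronized array 2, and its difference of -0.50 did not pass (adjusted p = 0.747) and was 0.23 without synchronized array 2. ENO1, the enolase, read 4.07, 3.99 and 4.31 on the superovulated arrays, against 3.53, 4.74 and 4.20 on the synchronized arrays, with a difference of -0.03 (adjusted p = 0.95). These 2 arrays gave the highest pair of values in 4 genes, PGK1, ENO1, LDHA and SUCLA2, of the 19 that exceeded log2 4 on any array (21.1%), and in 34.1% of all such genes.

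Some transcripts of the oocyte and of the cumulus cells around it were high on the same pair of arrays. KPNA7, the importin of oocytes, read 5.94, 5.98 and 7.78 on the superovulated arrays, with 4.04, 9.02 and 6.11 on the synchronized arrays. TNFAIP6, of the cumulus matrix, read 3.05, 2.99 and 7.38 on the superovulated arrays, against 4.25, 8.47 and 5.96 on the synchronized arrays. Of the oocyte list 3 of 8 measured genes (ZP2, ZP4 and KPNA7) exceeded log2 4 on any array, each with its highest pair of values there, and the list mean was 3.05 to 3.70 on the superovulated arrays, with 2.86 to 4.46 on the synchronized arrays. Of the cumulus and granulosa list 5 of 13 exceeded it, with list means of 3.06 to 3.59 on the superovulated arrays, against 3.32 to 3.90 on the synchronized arrays. TNFAIP6, PTX3 and INHA were highest on that pair, whereas HAS2 was highest on superovulated array 2 and FOXL2 on synchronized array 1. The defining genes FSHR, AMH and CYP19A1 lay between 2.36 and 3.38. Their part in the LDHA and PGK1 values was not tested.

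**Figure D4:**
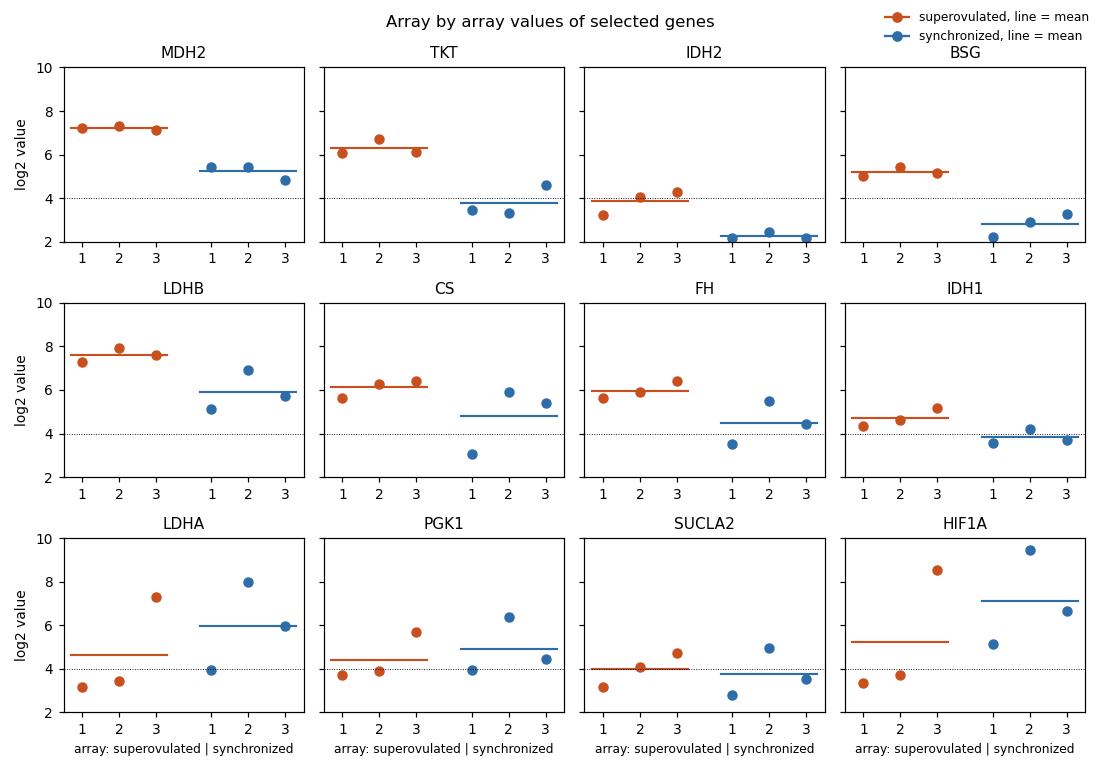
Signal (log2) of 12 genes on superovulated arrays 1 to 3 (orange, left) and synchronized arrays 1 to 3 (blue, right), with group means as lines and log2 4 dotted. MDH2, TKT, IDH2 and BSG separate the groups, whereas LDHA, PGK1, SUCLA2 and HIF1A are highest on superovulated array 3 and synchronized array 2.

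ALDOA, the aldolase of glycolysis, read 5.14, 5.70 and 5.55 on the superovulated arrays, against 4.62, 4.70 and 4.62 on the synchronized arrays. The synchronized arrays were tightly grouped below all superovulated arrays, and the difference of 0.82 (95% interval 0.42 to 1.21) had adjusted p = 0.163, which became 0.0408 without superovulated array 1 and 0.0422 when only bright probe sets were tested. The difference was 0.15 after a second quantile normalization and 0.19 after centring on bright probe sets. GAPDH, the glyceraldehyde phosphate dehydrogenase often used as a loading standard, read 4.37, 3.92 and 3.97 on the superovulated arrays, with 3.17, 3.71 and 4.03 on the synchronized arrays (difference 0.45, adjusted p = 0.636).

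The array also carries GAPDH control probe sets placed along the transcript, which were kept out of the test. Toward the 3′ end they read 8.67, 8.80 and 9.14 on the superovulated arrays, against 7.20, 8.35 and 8.22 on the synchronized arrays. In the middle they read 3.67 to 4.20, and toward the 5′ end 2.60 to 3.03, over all 6 arrays. The actin control probe sets lay between 2.50 and 3.03 at all 3 positions. Whether position or the probes themselves set these levels was not tested. Where the probe sets of the other genes lie along their transcripts was not analysed here, so a gene at background on every array is not shown to be silent.

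That limit bears on the controlling steps of glycolysis. HK1, which traps glucose as glucose 6-phosphate, read 2.98, 2.94 and 3.42 on the superovulated arrays, with 3.24, 3.25 and 2.80 on the synchronized arrays, a difference of 0.02 with a 95% interval of -0.48 to 0.51. The phosphofructokinase isoforms PFKL and PFKP, of liver and platelet type, stayed between 2.44 and 2.77 on every array, with differences of 0.10 and -0.03. PFKM, the muscle isoform, read 3.53, 3.52 and 3.44 on the superovulated arrays, against 3.58, 3.52 and 3.92 on the synchronized arrays, a difference of -0.18 (adjusted p = 0.636). PKM, the pyruvate kinase of most tissues, read between 2.69 and 2.72 on all 6 arrays, where no difference was detectable. GPI, ALDOC, TPI1, PGAM1 and ENO2 also exceeded log2 4 on no array, with differences between -0.28 for ALDOC and 0.01 for GPI. The groups in TPI1 and PGAM1 did not overlap, but lay apart by differences of only -0.12 and -0.02.

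Among the transporters, SLC2A5, a facilitative carrier for fructose, read 3.59, 3.81 and 3.54 on the superovulated arrays, against 2.66, 2.46 and 2.48 on the synchronized arrays. The groups did not overlap, although no array reached log2 4. SLC2A5 rose by 1.11 (95% interval 0.87 to 1.36, adjusted p = 0.0287 by limma), and its other 2 probe sets differed by -0.03 and -0.05. Averaging its probe sets gave 0.35 (adjusted p = 0.0471). Centring each array on its bright probe sets gave 0.49, which did not pass. Without superovulated array 1, 2 or 3 its adjusted p was 0.0907, 0.0685 and 0.0721, and without synchronized array 1, 2 or 3 it was 0.0584, 0.0694 and 0.11. SLC2A1, the widely expressed glucose transporter, read 3.31, 3.72 and 4.17 on the superovulated arrays, with 3.77, 3.67 and 3.58 on the synchronized arrays, a difference of 0.06 (95% interval -0.53 to 0.65, adjusted p = 0.876). SLC2A3, a high-affinity glucose transporter, and SLC2A8, an intracellular sugar transporter, stayed between 2.36 and 2.75. SLC16A1, which carries lactate and pyruvate across membranes, read 3.49 to 3.79 on the superovulated arrays, against 3.55 to 3.57 on the synchronized arrays (difference 0.05).

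**Figure D5:**
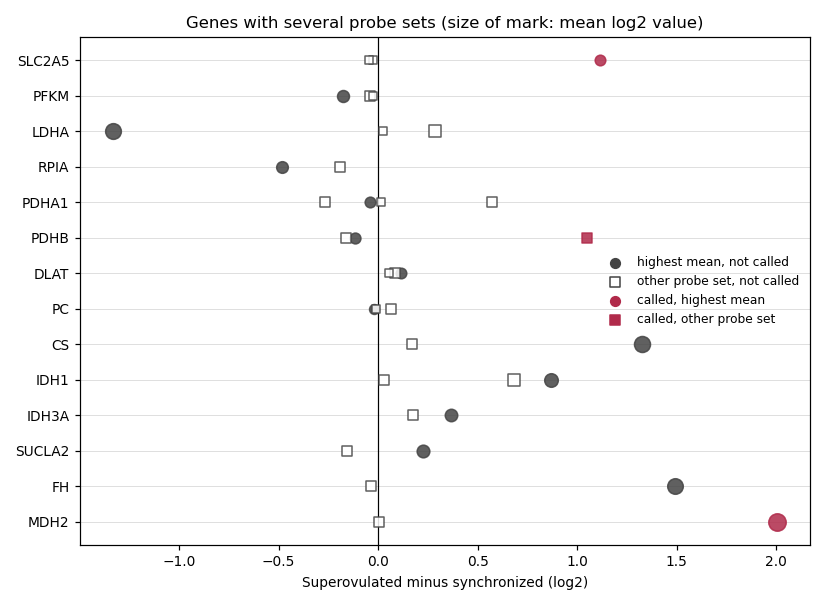
Difference, superovulated minus synchronized (log2), of every probe set of the 14 genes that had more than 1, with circles for the probe set of highest mean, squares for the others, red for adjusted p below 0.05 and larger marks for higher means. For MDH2, SLC2A5 and PDHB 1 probe set passed and the others lay between -0.16 and 0.01.

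Synchronized array 2 had 1850 probe sets above log2 4, within the range of the superovulated arrays, so the genes were also set against it alone, without a test. The mean of the superovulated arrays was above it by 1.81 in MDH2, 2.96 in TKT and 1.42 in IDH2. The excess was 1.19 in SLC2A5, 0.98 in TALDO1 and 0.76 in ALDOA. The groups did not overlap in these 6 genes, so every superovulated array had to lie above this array too. In LDHB the excess was 0.71, in FH 0.49 and in IDH1 0.47, also genes without overlap. In CS, where the groups overlapped, it was 0.19. The superovulated mean minus that array was -3.37 in LDHA, -1.96 in PGK1, -0.98 in SUCLA2, -0.81 in RPIA and -0.62 in ENO1. Against this array the median was 0.48 over the 10 bright genes of the list and 0.21 over all 925 bright genes. It had the lowest array weight of the 6 (0.211), and KPNA7 and TNFAIP6 had their highest values on it. Which transcripts make up its count above log2 4 was not analysed.

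Some lineage markers were also higher. KRT18 and DAB2, an endocytic adaptor also marking primitive endoderm, were the 2 of 9 measured trophectoderm markers that exceeded log2 4 on any array. Both passed (adjusted p = 0.041 and 0.0387 by limma), against higher calls in 1.3% of all genes. DAB2 exceeded log2 4 only on the superovulated arrays, and KRT18 on these and synchronized array 3, so that filter favoured a positive difference. The other 7 did not pass, with differences between -0.07 and 0.43. The mean of all 9, KRT18 and DAB2 included, was 3.52, 3.62 and 3.56 on the superovulated arrays, with 2.69, 2.72 and 2.99 on the synchronized arrays. The mean of the 3 measured inner cell mass markers was 3.53 to 3.79 on the superovulated arrays, against 2.81 to 3.05 on the synchronized arrays. Of these, KLF4 differed by 1.32 and POU5F1 by 0.81, but SOX2 by -0.01. The mean of the 4 primitive endoderm markers was 4.68 to 4.94 on the superovulated arrays, against 3.41 to 3.93 on the synchronized arrays. Here GATA6 differed by 2.12 and FN1 by 2.23, but PDGFRA by 0.07 and GATA4 by -0.20. No marker of either list passed. The part of the lineage markers in the MDH2, TKT and SLC2A5 differences was not tested. The oviduct and uterus markers (6 measured) and the blood markers (6 measured) exceeded log2 4 on no array.

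Of 74 further genes of these pathways, 52 had a probe set, and 0 of them passed at an adjusted p below 0.05 by limma, while 4 had an unadjusted p below 0.05, against 10% of all genes, and 1 passed the looser rule, against 3.15%. That gene was BSG, basigin, which escorts the lactate and pyruvate carrier SLC16A1 to the cell surface. BSG read 5.04, 5.44 and 5.14 on the superovulated arrays, against 2.21, 2.92 and 3.29 on the synchronized arrays. The groups were far apart, by a difference of 2.40 (adjusted p = 0.061), and its second probe set stayed at 2.44 to 2.47 on all 6 arrays. ME2, the mitochondrial malic enzyme that converts malate to pyruvate, read 4.29, 4.47 and 4.35 on the superovulated arrays, with 3.55, 3.57 and 3.87 on the synchronized arrays (difference 0.71, adjusted p = 0.0907). ME2 and the following genes were chosen after their values were seen.

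HIF1A, the oxygen-regulated transcription factor subunit known to act on LDHA and PGK1, read 3.37, 3.73 and 8.54 on the superovulated arrays, against 5.14, 9.47 and 6.68 on the synchronized arrays. Its 6 arrays fell in the same order as those of LDHA, and its difference of -1.88 did not pass (adjusted p = 0.64). Whether HIF1A had a part in the LDHA or PGK1 values was not tested. Of the 13 further genes above log2 4 on any array, 9 (69.2%) were highest on superovulated array 3 and synchronized array 2. Among all genes above log2 4 on any array the share was 34.1%. The 9 included the sodium-glucose carrier SLC5A1, the lactate exporter SLC16A3, PFKFB3, which makes the activator of phosphofructokinase, and ACLY, which makes cytosolic acetyl-CoA. Over all 52 the median difference was -0.015, against -0.02 over all genes.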

How the data were processed

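Day-7 blastocysts were measured on 6 arrays, 3 superovulated and 3 synchronized. The authors deposited 1 log2 value per probe set and array, made with GCRMA (background subtraction, normalization and summary of probes) per the submitters' processing notes; its version and whether the arrays were normalized together are not given in the sources used here. No depth applies: 3 arrays per group limit the precision. The 112 control probe sets were left out and 24016 tested. Symbols came from the platform annotation; all 43 matched ARS-UCD2.0 gene identifiers, with 0 symbols changed. Superovulated minus synchronized was fitted with limma 3.58.1 in R 4.3.3 (lmFit, eBayes, group as the only term, two-sided), with Benjamini-Hochberg adjustment over all tested probe sets. The naming rule took a call, a looser call, a mean above log2 4, discordant probe sets, or fixed isoenzymes and controlling steps. Outside that rule, TALDO1, SUCLG2, DLD, RPIA and GAPDH are also given array by array, and the others mostly by range. The members, the pathway and marker lists and the tests were chosen with earlier results of these data known. On simulated data the fit recovered 6.1% of changes of 1 log2 unit placed in bright probe sets, and 21.7% of changes of 2. A gene that did not pass is thus not shown to be unchanged. Same-numbered arrays did not deviate together in all 3 pairs (correlations of deviations 0.542, -0.399 and -0.405), so the numbers were not taken as pairs. Alternatives covered each array left out, a replicate block, quantile normalization, centring, a brightness filter, array weights, an intensity trend, averaged probe sets and the looser rule. Symbols with several genes were not used.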

Additional observations from a re-analysis of the deposited data

Results flagged for a closer look

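The GAPDH control probe set at the 3′ end lay outside the group comparison and carried a strong signal on all 6 arrays. Its mean was 8.87 ± 0.24 over the superovulated arrays, against 7.92 ± 0.63 over the synchronized ones (SD, n = 3 each), a difference of 0.95 with no overlap. An exact permutation test, two-sided, gave p = 0.1, the smallest that 3 against 3 arrays allow. The GAPDH probe set used in the comparison, which lay near log2 4, differed by 0.45 with overlapping groups.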

How the results depend on the processing

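Counts of calls depended on most settings, and 3 arrays a group with most probe sets near background limit what can be seen. The 172 probe sets called (167 higher, 5 lower) became 0 with a replicate block, 28 after a second quantile normalization, 647 after centring on bright probe sets (281 higher, 43.4%, against 97.1% as reported), 441 among bright probe sets only (of 1406 tested), 515 with array weights (456 higher), 50 with an intensity trend, 456 under the looser rule, and 26 to 137 when single arrays were left out (137, with 41 lower, without synchronized array 2). Leaving out superovulated array 3 and synchronized array 2 together, an alternative chosen after seeing the data, left 1. The 2 genes of central carbon metabolism called became 0 with the replicate block, quantile normalization or that pair left out, 1 with the trend, 4 among bright probe sets only (10 genes tested), with array weights or under the looser rule, and 0 to 2 when single arrays were left out. After centring 3 passed, LDHA lower and TKT and MDH2 higher. The median difference of all 43 genes, 0.007, was -0.615 after centring, 1.095 among bright genes only, 0.033 with probe sets averaged, and -0.002 to 0.045 with single arrays left out. For glycolysis with transport the median of -0.01 was 0.007 after quantile normalization, -0.632 after centring and -0.033 among bright genes. For pentose phosphate, 0.243 became -0.378 after centring and 2.507 for its 1 bright gene. For pyruvate entry with the TCA cycle, 0.223 became -0.398 after centring, 1.408 among bright genes, 0.441 with array weights, 0.34 without the pair of arrays, and 0.09 to 0.292 with single arrays left out. Centring subtracted 4.99 to 5.39 on the superovulated arrays and 4.12 to 5.09 on the synchronized arrays. In the centred fit limma tested every probe set with 1 shared SD of 0.438, although LDHA had an SD of 1.85, so its count and p-values say little of single genes. The bright-only count and medians cover fewer genes. Among these, TKT, the 1 bright pentose phosphate gene, and IDH1 have a mean above log2 4 only through the superovulated arrays. The brightness rule thus favoured a positive difference in both, and other causes were not tested. The replicate numbers were not shown to pair the arrays. No sign changed for MDH2 or SLC2A5 in 27 alternative values, of which 19 lost the call; for the 23 other named genes, 27 of 308 values changed sign and 8 passed.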
